A study of Mus musculus with 4 samples.

Results

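The miR-30 family is a group of microRNAs (miRNAs) that share 1 seed on the 5p arms of their precursors, and 9 of its mature miRNAs are described here. They were chosen by name, out of 869 mature miRNAs with a value in at least 1 sample, and comprise the 5p arms miR-30a-5p, miR-30b-5p, miR-30c-5p, miR-30d-5p and miR-30e-5p and the 3p arms miR-30a-3p, miR-30b-3p, miR-30d-3p and miR-30e-3p. All 9 had a value in all 4 samples and a mean of at least 10 reads, so that none was lost to a filter on low values.

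Small RNA was sequenced from C2C12, a mouse skeletal muscle cell line whose myoblasts fuse into myotubes when serum is lowered, labelled with the strain background 129/Rej. Cells were placed in differentiation medium with horse serum, either without addition (NC, negative control) or with 20 mM guanidinoacetic acid (GAA), the direct precursor of creatine, and all samples were taken on day 6 of differentiation. Each group held 2 samples, called NC-1 and NC-2 or GAA-1 and GAA-2 after their labels, and values are listed below in that order. The labels do not say whether the 2 samples of a group came from separate cultures, so p-values measure only the spread between these samples, which may be technical, and a cell line grown without other tissue limits what the groups model.

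The files held 1653803 and 2065461 miRNA reads in NC and 3134241 and 2850828 in GAA, which was 33.6% and 43.6% of all mappable reads in NC and 56.3% and 50.4% in GAA. The RPM values used below are miRNA reads scaled to the mappable reads of the library, so this larger miRNA fraction in both GAA samples enters every RPM comparison, and each member is therefore given a second time as a share of the summed miRNA RPM of its own sample. Muscle miRNAs were present, and all 7 listed markers had reads in all 4 samples and summed to 10480 to 13715 RPM in NC and 10533 to 11217 RPM in GAA. The sum was led by miR-486a-5p, and 5 of the 7 were lower in both GAA samples in RPM, against 2.73% of the 366 miRNAs with a mean of at least 10 reads: miR-1a-3p, miR-133a-3p, miR-206-3p, miR-499-5p and miR-208b-3p, the last at 18.7 and 17.8 RPM in NC and 3.05 and 1.41 RPM in GAA. The part of this in the results below was not tested. Listed markers of blood (6 miRNAs) summed to 10.99 to 14.82 RPM in NC and 15.91 to 21.02 RPM in GAA. This sum was led by miR-142a-5p and hid opposite directions. In both GAA samples 2 of the 6 were higher (miR-142a-3p and miR-142a-5p) and 2 lower (miR-144-3p and miR-451a). Among the 366 miRNAs 65.3% were higher and 2.73% lower. Markers of endothelium (2) summed to 10.99 to 12.39 RPM in NC and 11.8 to 18.0 RPM in GAA. Those of epithelium (5) summed to 1.48 to 1.83 and 0.530 to 2.52 RPM, with 2 of the 5 lower in both GAA samples. Those of brain (2, nearly all of it miR-9-5p) summed to 28.0 to 41.4 and 43.1 to 59.8 RPM. The liver miRNA miR-122-5p had no read in NC and 0.354 to 3.05 RPM in GAA.

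A miRNA is cut from a hairpin precursor as a short duplex of a 5p and a 3p strand, and usually 1 of them, the guide, is kept in an Argonaute protein while the other is degraded. Bases 2 to 8 of the guide, the seed, pair with target messenger RNAs and lead to their repression, so miRNAs with the same seed draw on overlapping sets of targets. In the miR-30 family the 5p strand is the usual guide, and the family is known from muscle, heart and bone, with the profibrotic growth factor gene Ctgf, the autophagy gene Becn1 and the transcription factor gene Snai1 among its best studied targets.

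The mature sequences are shown because the seed defines the family and because single bases separate some paralogs. Of the 9 members 5 had a sequence in the RefSeq table (assembly GRCm38.p6). In each line below, written 5′ to 3′, the capitals mark the seed.
miR-30a-5p: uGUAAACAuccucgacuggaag
miR-30e-5p: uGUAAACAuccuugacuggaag
miR-30c-5p: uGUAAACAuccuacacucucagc
miR-30a-3p: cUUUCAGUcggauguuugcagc
miR-30e-3p: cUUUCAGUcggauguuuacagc
The 3 5p sequences began with the same 12 bases and carried the seed GUAAACA, which among the 717 miRNAs of the files with a sequence was otherwise held only by miR-384-5p. Counted from 1 at the 5′ end, with the base of the first-named miRNA first, miR-30a-5p and miR-30e-5p differed by C13U alone, and miR-30a-5p and miR-30c-5p by C13A, G14C, G18C, G19U and A20C. The 3p strands miR-30a-3p and miR-30e-3p shared another seed, UUUCAGU, with no other miRNA that had a sequence, and differed by G18A alone. Reads of miR-30a and miR-30e could thus be exchanged by a single sequencing error, and how mismatches were treated in mapping is not given in the sources used here, so the split between these paralogs is uncertain on both arms.

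miR-30a comes from a hairpin at chr1:23272269-23272339 on the plus strand, where the GRCm38 annotation (GENCODE M21) has no other gene. miR-30e comes from chr4:120772606-120772697 on the minus strand, inside an intron of Nfyc, the gene of a subunit of the NF-Y transcription factor, which is read from the same strand. miR-30c-5p is made identically from 2 genes, Mir30c-2 at chr1:23291701-23291784 (plus strand, in an exon of the long non-coding RNA Gm27028) and Mir30c-1 at chr4:120769534-120769622 (minus strand, also in an intron of Nfyc). Mir30a and Mir30c-2 lie 19361 bases apart, and Mir30c-1 and Mir30e lie 2983 bases apart. The hairpins of miR-30a and miR-30e are shown because the arm ratios below compare their strands, with the 5p arm first and then the 3p arm in capitals.
Mir30a: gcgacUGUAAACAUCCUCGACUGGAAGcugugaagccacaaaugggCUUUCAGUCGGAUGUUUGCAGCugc
Mir30e: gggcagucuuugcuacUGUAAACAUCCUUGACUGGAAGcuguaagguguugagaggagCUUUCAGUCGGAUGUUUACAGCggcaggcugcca
The loop between the arms was 19 bases in Mir30a and 20 bases in Mir30e.

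The 5p arms were among the abundant miRNAs of these myotubes and fell in the same order in all 4 samples, miR-30a-5p, miR-30d-5p, miR-30e-5p, miR-30c-5p and miR-30b-5p. Levels are given in RPM without a length correction, because mature miRNAs differ by about a base in length. miR-30a-5p ranked 5 to 6 among all miRNAs, at 11217 and 17192 RPM in the NC samples against 19228 and 14448 RPM with GAA. NC-1 was the lowest and GAA-1 the highest, but the groups overlapped, since GAA-2 was below NC-2.
miR-30d-5p ranked 11 to 17, at 3877, 5827, 8089 and 5424 RPM, again with GAA-2 below NC-2. miR-30e-5p, which differs from miR-30a-5p by 1 base, ranked 19 to 28 and stood at 2440, 3300, 4735 and 2731 RPM. In both, GAA-1 was the highest sample and NC-1 the lowest.
miR-30c-5p, the member with 2 genes, ranked 30 to 37 and reached 1327 and 1790 RPM without GAA and 3169 and 1820 RPM with it. miR-30b-5p ranked 45 to 47, with 975 and 1145 RPM in NC and 1571 and 1291 RPM in GAA. For these 2 both GAA samples lay above both NC samples, in miR-30c-5p only narrowly for GAA-2 over NC-2.

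Of the neighbours in this order only the first pair stood apart over all samples. miR-30a-5p was 2.38 to 2.95 times as high as miR-30d-5p within a sample and its lowest value exceeded the highest of miR-30d-5p. The next steps were 1.59 to 1.99 times from miR-30d-5p to miR-30e-5p, 1.49 to 1.84 times from miR-30e-5p to miR-30c-5p and 1.36 to 2.02 times from miR-30c-5p to miR-30b-5p, and at each of them the ranges over the 4 samples overlapped although the order within every sample was kept.

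The 3p arms were far lower and ran in the order miR-30a-3p, miR-30d-3p, miR-30e-3p and miR-30b-3p in all 4 samples. miR-30a-3p had 103 and 117 RPM in NC against 185 and 154 RPM with GAA. miR-30d-3p had 50.2 and 50.9 RPM in NC and 77.4 and 67.7 RPM in GAA, and miR-30e-3p had 37.6 and 40.1 RPM in NC and 60.2 and 44.0 RPM in GAA. In all 3, both GAA samples lay above both NC samples in RPM.
miR-30b-3p was the rarest member, at 2.64, 5.07, 5.39 and 6.36 RPM, which was 13, 24, 30 and 36 reads. Its 5p partner had 4802 to 8747 reads, so the depth behind the 2 arms of miR-30b differed strongly.
miR-30a-3p was 2.05 to 2.39 times as high as miR-30d-3p and miR-30e-3p was 6.92 to 14.2 times as high as miR-30b-3p, with no overlap of their ranges. miR-30d-3p exceeded miR-30e-3p by 1.27 to 1.54 times, with overlapping ranges.

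**Figure D1:**
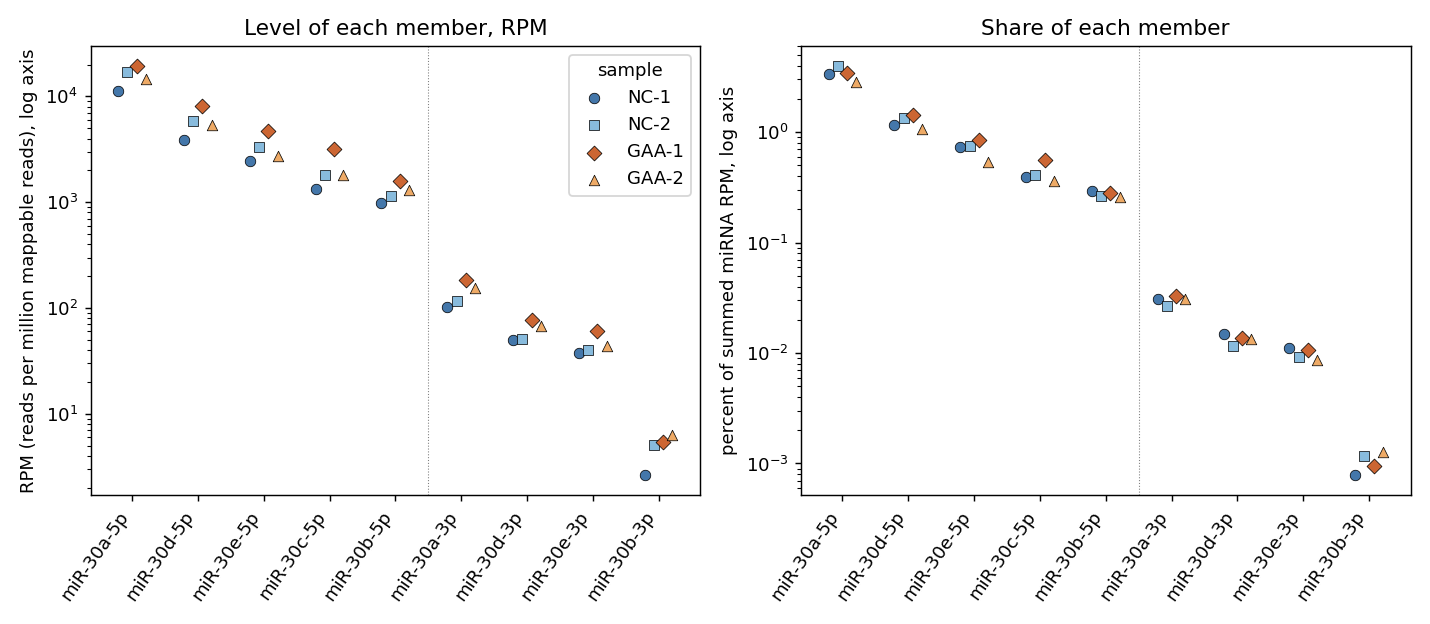
Level of each miR-30 member in every sample, in RPM (left) and as percent of the summed miRNA RPM of that sample (right), both on log axes, with 1 point per sample and the 5p arms left of the dotted line. The 5p arms lie between 975 and 19228 RPM and the 3p arms between 2.64 and 185 RPM, and GAA samples that stand above NC samples on the left no longer do so on the right.

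As a share of all miRNA, the picture changed. miR-30a-5p took 3.34% (95% Wilson interval 3.31 to 3.37) and 3.94% (3.91 to 3.97) of miRNA RPM in NC and 3.41% (3.39 to 3.44) and 2.87% (2.85 to 2.89) in GAA. These intervals and those below cover counting error only, since the reads carried no molecular identifiers. The samples of 1 group differed by far more than their intervals, and the GAA values lay on both sides of NC-1.
The remaining 5p shares were 1.15%, 1.34%, 1.44% and 1.08% for miR-30d-5p, 0.727%, 0.756%, 0.841% and 0.542% for miR-30e-5p, 0.395%, 0.410%, 0.563% and 0.361% for miR-30c-5p and 0.290%, 0.262%, 0.279% and 0.256% for miR-30b-5p. Their Wilson intervals reached at most 2.82% of the value to either side. For miR-30d-5p, miR-30e-5p and miR-30c-5p GAA-1 was the highest of the 4 samples and GAA-2 the lowest.
The 3p shares were 0.0307%, 0.0268%, 0.0329% and 0.0306% for miR-30a-3p, 0.0149%, 0.0117%, 0.0138% and 0.0134% for miR-30d-3p, 0.0112%, 0.00920%, 0.0107% and 0.00873% for miR-30e-3p and 0.000786%, 0.00116%, 0.000957% and 0.00126% for miR-30b-3p. Intervals reached up to 14.4% of the value for the first 3 and up to 56.3% for miR-30b-3p, so that its 4 values could not be told apart by much at this depth.

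On the 5p arms the 2 samples of a group differed by 2.26 to 43.4 times the counting SD of their log2 difference. In GAA the share of miR-30c-5p was 1.56 times and that of miR-30e-5p 1.55 times as high in GAA-1 as in GAA-2, differences of 35.7 and 43.4 times their counting SD. In NC the shares of both were 1.04 times as high in NC-2 as in NC-1. miR-30a-5p differed by 1.18 times between the NC samples and by 1.19 times between the GAA samples. The 3p arms differed by 1.02 to 1.48 times, at 0.332 to 2.73 times the counting SD, with the highest for miR-30d-3p in NC.

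The main comparison asked whether GAA moved any member. No member passed in limma, the linear model fitted over all 869 miRNAs on log2(RPM + 1), with calls set at a Benjamini-Hochberg FDR below 0.01 and a change of more than 1 on the log2 scale in either direction. The same held for the whole table, with 0 of 869 miRNAs called (0% called), 152 of 869 (17.5%) at an unadjusted p below 0.05 and a lowest adjusted p of 0.205. In these bulk samples a change in the number of cells of a type and a change in RNA per cell cannot be told apart.
All 9 members had a positive log2 fold change of GAA over NC in RPM, with a median of 0.48, beside a median of 0.50 over the 366 miRNAs with a mean of at least 10 reads, 91.8% of which were positive too. The members' values ran from 0.26 to 0.64.
Among the 5p arms, the limma log2 fold change in RPM was 0.26 (SE 0.31, adjusted p = 0.604) for miR-30a-5p and 0.64 (SE 0.35, adjusted p = 0.407) for miR-30c-5p, the lowest and the highest of the 9 members. Those of miR-30b-5p, miR-30d-5p and miR-30e-5p were 0.43, 0.48 and 0.34, with adjusted p of 0.338, 0.524 and 0.538. The value of miR-30a-5p turned to -0.04 without NC-1, and that of miR-30e-5p to -0.06 without GAA-1. That of miR-30c-5p was 0.24 without GAA-1 and 1.04 without GAA-2, and that of miR-30d-5p ran from 0.19 without NC-1 to 0.77 without NC-2.
Among the 3p arms, miR-30a-3p had 0.62 (SE 0.18, limma adjusted p = 0.254) and miR-30d-3p 0.51 (SE 0.16, adjusted p = 0.272), and these were the 2 members with an unadjusted p below 0.05. That count was 0 as shares or with the replicate block and 1 with either filter on low values. It was 5 with a crossed replicate block, chosen after seeing the data, where 212 of 869 miRNAs had such a limma p. miR-30b-3p had 0.55 and miR-30e-3p 0.40, with adjusted p of 0.455 and 0.407. Without NC-1 the value of miR-30b-3p was 0.18 and without NC-2 it was 0.91, and that of miR-30e-3p ran from 0.18 without GAA-1 to 0.62 without GAA-2. The intervals of the 3p arms were narrower than those of their 5p partners for miR-30a, miR-30d and miR-30e.

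In RPM both GAA samples lay above both NC samples for 6 of the 9 members, miR-30b-5p, miR-30c-5p and all 4 3p arms, against 65.3% of the 366 miRNAs with a mean of at least 10 reads. No member lay below in both, against 2.73% of the 366. The count for the members was thus near that for miRNAs at large.
As a share of miRNA RPM the samples overlapped for all 9 members. Among the 366 miRNAs 23.8% lay above in both GAA samples and 17.8% below on that scale. The limma log2 fold changes of the shares ran from -0.21 for miR-30a-5p to 0.18 for miR-30b-3p, with a median of 0.00 beside 0.05 for the 366, and 5 of 9 members were positive beside 57.1%. Adjusted p-values of the members were 0.781 to 0.996, and 1 miRNA of 869 was called (0.115%), the myosin-intron miR-208b-3p, which is no member and was named after its values were seen.
The sign of miR-30a-5p, miR-30b-5p, miR-30e-5p and miR-30e-3p therefore depended on the scale. Their values were 0.26, 0.43, 0.34 and 0.40 in RPM and -0.21, -0.05, -0.13 and -0.07 as shares. miR-30c-5p kept a positive value of 0.16 as a share, which became -0.16 when GAA-1 was left out.
The 95% intervals of the share differences were -0.74 to 0.31 for miR-30a-5p, -0.50 to 0.51 for miR-30d-5p, -0.67 to 0.41 for miR-30e-5p, -0.37 to 0.69 for miR-30c-5p and -0.46 to 0.37 for miR-30b-5p on the log2 scale. No interval of a share reached 1 in either direction apart from that of miR-30b-3p, whose upper end was 1.02.

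**Figure D2:**
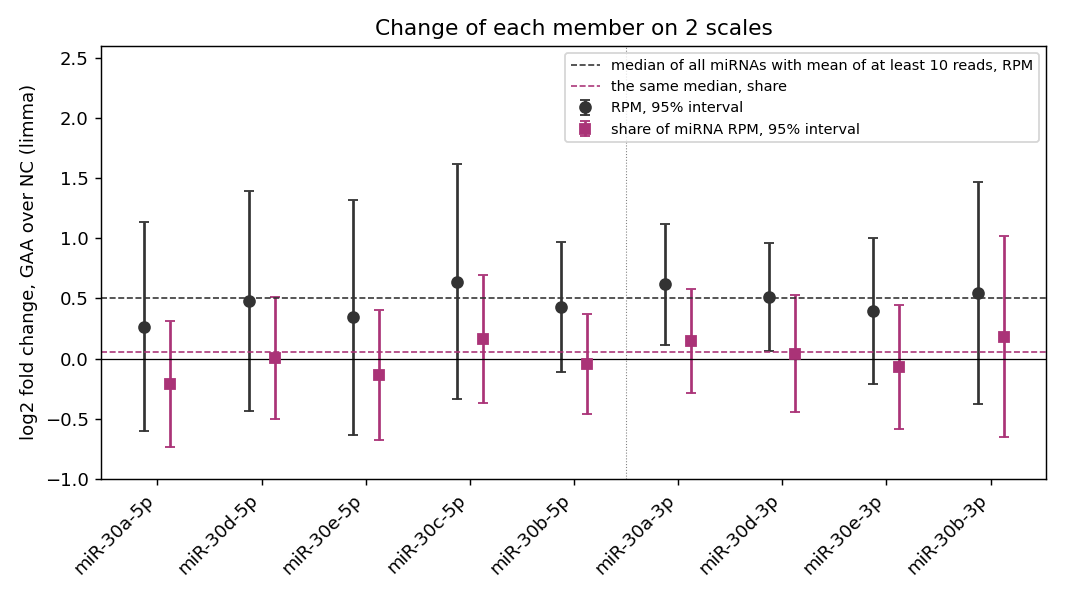
The limma log2 fold change of GAA over NC for each member with its 95% interval, in RPM (circles) and as share of miRNA RPM (squares), the dashed lines giving the median of the 366 miRNAs with a mean of at least 10 reads on each scale. The members scatter around those medians, between 0.26 and 0.64 in RPM and between -0.21 and 0.18 as shares.

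Summed over the 5p arms, which share the seed, the family came to 19835 and 29254 RPM in the NC samples and to 36792 and 25714 RPM in the GAA samples. The groups overlapped, with GAA-2 below NC-2. The difference of the mean log2 sums was 0.35 (exact permutation test, two-sided, p = 0.667), and 2 samples against 2 cannot give a p below 0.333 in this test. It was 0.072 without NC-1, 0.094 without GAA-1, 0.63 without NC-2 and 0.61 without GAA-2, so each sample moved it by more than 1.5 times. As a share the sum made up 5.91%, 6.70%, 6.53% and 5.10% of miRNA RPM and the log2 difference was -0.12 (exact permutation p = 0.667).
The 3p members summed to 193 and 213 RPM in NC and 328 and 272 RPM in GAA. This sum was higher in both GAA samples, by 0.56 on the log2 scale (exact permutation p = 0.333, the smallest possible), while its shares of 0.0576%, 0.0489%, 0.0583% and 0.0540% overlapped.

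Set beside 2 other abundant seed families, miR-30 was the largest of the 3 in all 4 samples. The let-7 family with miR-98, known for holding back proliferation, took 3.35%, 4.10%, 3.08% and 3.90% of miRNA RPM, and the miR-29 family, known for repressing collagen genes, took 0.850%, 0.634%, 0.854% and 0.837%. The log2 ratio of the miR-30 5p sum to let-7 was 0.82, 0.71, 1.08 and 0.39, so both extremes were GAA samples and the group means differed by -0.03 (exact permutation p = 1). The log2 ratio to miR-29 was 2.80, 3.40, 2.94 and 2.61, with a difference of -0.33 and overlapping groups (exact permutation p = 0.667). In RPM 6 of 9 let-7 miRNAs and 3 of 3 miR-29 miRNAs lay above in both GAA samples, beside the 6 of 9 members of miR-30 and the 65.3% of the 366 miRNAs. As shares, 1 let-7 miRNA lay above and 2 below in both GAA samples, and 1 miR-29 miRNA lay above, beside none of the 9 miR-30 members and 23.8% above and 17.8% below among the 366.

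Within the 5p arms the makeup of the family does not depend on how the libraries are scaled. miR-30a-5p made up 56.5% and 58.8% of the 5p sum in NC and 52.3% and 56.2% in GAA, where both values were below NC. miR-30d-5p made up 19.5% and 19.9% in NC and 22.0% and 21.1% in GAA, and miR-30c-5p 6.69% and 6.12% in NC and 8.61% and 7.08% in GAA, both higher in the 2 GAA samples.
The shares of miR-30e-5p, at 12.3%, 11.3%, 12.9% and 10.6%, and of miR-30b-5p, at 4.92%, 3.91%, 4.27% and 5.02%, overlapped between the groups. The group means differed by -3.44 percentage points for miR-30a-5p, 1.81 for miR-30d-5p, 1.44 for miR-30c-5p, 0.231 for miR-30b-5p and -0.0453 for miR-30e-5p. For the first 3 the exact permutation test gave its smallest possible p of 0.333, or 0.556 after Benjamini-Hochberg adjustment over the 5 paralogs, so the design could not pass a threshold of 0.05.
Shares within a sum are tied to each other, and a lower share of miR-30a-5p has to be met by higher shares elsewhere. Without GAA-1, the sample with the lowest share, the difference of miR-30a-5p was -1.47 percentage points, and that of miR-30c-5p 0.674, less than the SD of 1.08 between the GAA samples.

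**Figure D3:**
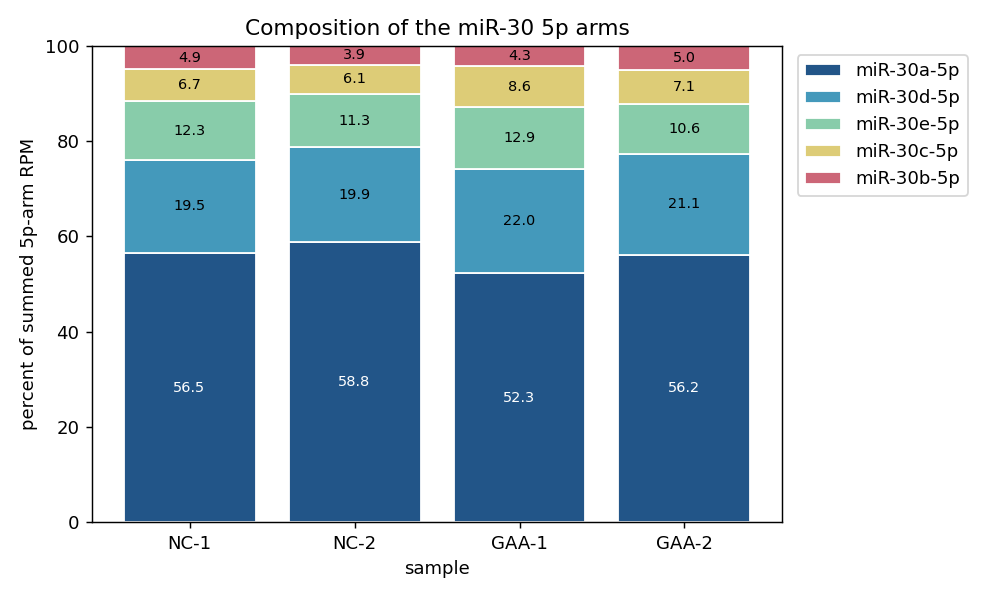
Stacked bars of the percent of the summed 5p-arm RPM taken by each paralog in each sample, 1 bar per sample. miR-30a-5p takes 52.3% to 58.8% everywhere and is lower in both GAA bars, while miR-30d-5p and miR-30c-5p are higher in both.

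The arm ratio compares the strands of 1 hairpin inside 1 library and is also free of the scaling. In all 4 precursors with both arms among the members the 5p strand dominated, the 3p strand making up 0.270% to 1.59% of the reads of its precursor. The number of 5p reads per 3p read was 109 and 147 for miR-30a in the NC samples and 104 and 93.7 with GAA. For miR-30d it was 77.3 and 114 without and 104 and 80.1 with GAA.
For miR-30e, whose 3p strand differs from that of miR-30a by G18A, the ratio was lower, at 64.9 and 82.2 in the NC samples and 78.7 and 62.0 with GAA. For miR-30b it was the highest and the least precise, at 369, 226, 292 and 203 with 13 to 36 reads on the 3p arm. The order miR-30b, miR-30a, miR-30d and miR-30e held in 3 samples, while in GAA-1 miR-30d stood slightly above miR-30a.
miR-30c-5p, whose 3p arms are named by gene, had 79.7, 81.5, 94.3 and 57.2 reads for each read of miR-30c-1-3p and miR-30c-2-3p together. In GAA-2 this was below the lowest ratio of the other 4 precursors, 62.0 for miR-30e. Over the 106 precursors with a mean of at least 10 reads on both arms, the median log2 ratio was 1.04 and 61 had more 5p than 3p reads. miR-30b, miR-30a, miR-30d and miR-30e ranked 8, 14, 17 and 19 among the 106 by 5p excess.

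With GAA the arm ratios did not pass the test in limma over the 106 precursors. The log2 difference of GAA from NC was -0.36 (SE 0.43) for miR-30a, -0.23 (SE 0.48) for miR-30b, -0.04 (SE 0.43) for miR-30d and -0.06 (SE 0.42) for miR-30e, with a limma adjusted p of 0.991 for each. For miR-30a it was -0.14 without NC-2 and -0.57 without NC-1. Only 1 precursor of the 106 was called at an FDR below 0.05 (0.943%), miR-1843b, which is no member and was named after its values were seen.
miR-30a was the 1 member precursor whose ratio was lower in both GAA samples than in both NC samples, as it was for 24.5% of the 106. The other 3 overlapped, with NC-1 and GAA-2 low and NC-2 and GAA-1 high for miR-30d and miR-30e. The 95% intervals reached from -1.21 to 0.50 for miR-30a and from -0.88 to 0.76 for miR-30e, so both held differences in either direction. In limma these widths, and the SEs and p-values above, were set by the spread over all 106 precursors, with a median SE of 0.43. The precursor's own samples had next to no weight in them. They therefore do not measure the spread between the replicates of a miR-30 precursor. Over the 4 samples the SD of the log2 ratio was 0.28 for miR-30a, 0.37 for miR-30b, 0.28 for miR-30d and 0.20 for miR-30e.

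**Figure D4:**
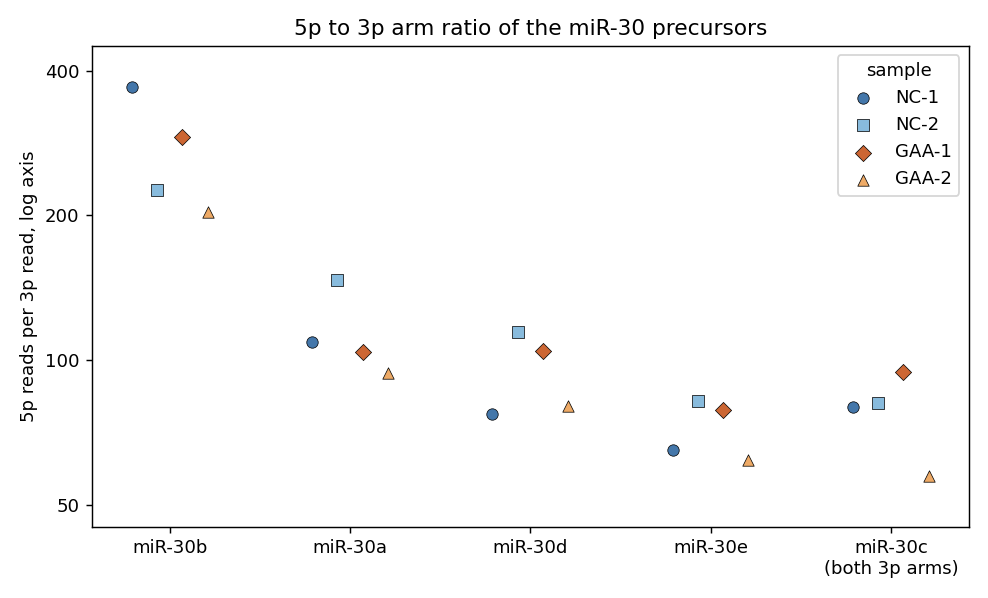
Reads of the 5p arm per read of the 3p arm for each miR-30 precursor in each sample, on a log axis, with miR-30c-5p set against both of its 3p arms together. Ratios lie between 57.2 and 369, and only for miR-30a are both GAA points below both NC points.

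Pattern likeness was measured as the Euclidean distance of log2(RPM + 1) over the 4 samples, each centred on its own mean, from the summed 5p arms, among 124 miRNAs with a mean of at least 100 RPM. The closest were miR-34c-5p at 0.053, miR-181d-5p at 0.110 and miR-148b-3p at 0.112, against a median of 0.449 for the 124. miR-34c-5p had 3904 and 5857 RPM in NC and 7090 and 4909 RPM in GAA, the same order of samples as the miR-30 5p sum. All miRNAs come from the same 4 libraries, whose differing miRNA fractions enter every RPM value, so this is a description only.
2 relatives of the family had few reads. miR-384-5p, which shares the miR-30 seed, had 1 read in each NC sample and 4 and 6 reads in the GAA samples, and miR-30f, annotated on the strand opposite Mir30e, had no read in NC-1 and GAA-1 and 1 read in each of the other samples.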

How the data were processed

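Small RNA libraries of 2 NC and 2 GAA samples were analysed. According to the study's methods, the authors trimmed adaptors, dropped reads of low quality or outside their length limits, mapped clean reads to GRCm38.p5 with miRDeep2, assigned them to miRBase mature miRNAs and scaled counts to total mappable reads (RPM). The deposited values are log2(RPM + 1), 1 file per sample, and a miRNA without a row was taken as 0. Values were converted back to RPM. The value of 1 read was 0.203, 0.211, 0.180 and 0.177 RPM in the 2 NC and then the 2 GAA samples, and 95.6% of values gave whole reads within 0.05. miR-30c-5p came to 8471.5 reads in NC-2 and 17637.5 in GAA-1, so its values were not always whole reads, and the reason was not tested. No read in a sample allows up to 3 reads, or 0.530 to 0.634 RPM.

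limma 3.58.1 in R 4.3.3 (lmFit, eBayes with trend) was run over 869 miRNAs without covariates, called at FDR below 0.01 and absolute log2 fold change above 1, the limits of the study, whose own test used counts. A fold change on log2(value + 1) understates that of low miRNAs. Arm ratios used log2 of recovered reads with 0.5 added, at FDR below 0.05. Sums and shares within the family used exact permutation tests (scipy 1.17.1). Shares of miRNA RPM, on the RPM scale, were fitted the same way. The scripts were tested on simulated data with changes larger than those of the members, so that test does not cover changes of the members' size. Alternatives were other scalings, a pseudocount of 0.1, filters on low values, no trend, a replicate block and leaving out each sample.

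The 9 members, the relatives (other miRNAs with the seed, the miR-30c 3p arms, miR-30f and miR-384), the comparison families, the marker lists and the rule for likeness (the 3 nearest with a mean of at least 100 RPM) were chosen with earlier results of these data known. Sequences were taken from RefSeq and overlaps from GENCODE M21, which use the same assembly as the study.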

Additional observations from a re-analysis of the deposited data

How the results depend on the processing

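No member was called under any of the 16 alternatives to the RPM fit. The count over all miRNAs, 0 in RPM, was 1 as a share, without the 5 most abundant miRNAs in the divisor and with median-of-ratios scaling, and 6 with the replicate block and shares together; the replicate block alone gave 0 in RPM and leaving out 1 sample 0 to 0. Same-numbered samples deviated oppositely (correlation -0.196 over 366 miRNAs), so the numbers were not taken as pairs; a crossed replicate block, chosen after seeing the data, gave 0 miRNAs in RPM, 6 as shares and 0 precursors. The direction of the 5p sum (0.35) reversed to -0.12 as a share, -0.038 without the 5 most abundant and -0.18 with median-of-ratios. Share, with or without a block, gave -0.21 for miR-30a-5p, -0.046 for miR-30b-5p, -0.13 for miR-30e-5p and -0.070 for miR-30e-3p. Without the 5 most abundant, miR-30a-5p had -0.13 and miR-30e-5p -0.049. Median-of-ratios gave -0.27 for miR-30a-5p, -0.10 for miR-30b-5p, -0.052 for miR-30d-5p, -0.19 for miR-30e-5p, -0.012 for miR-30d-3p and -0.12 for miR-30e-3p. These scalings moved the median of the 497 miRNAs with a value in all samples from 0.51 in RPM to 0.03, 0.11 and -0.03. Leaving out each sample gave 0.072 to 0.63 for the 5p sum, -0.045 to 0.57 for miR-30a-5p and -0.055 to 0.74 for miR-30e-5p. Within the 5p arms it gave -0.270 to 0.732 percentage points for miR-30b-5p and -1.17 to 1.08 for miR-30e-5p, and on arm ratios -0.57 to -0.14 for miR-30a, -0.57 to 0.12 for miR-30b, -0.32 to 0.24 for miR-30d and -0.23 to 0.11 for miR-30e. The 1 called precursor became 0 with a mean of at least 50 reads and 0 to 4 when a sample was left out, and stayed 1 with the replicate block. The cause of these changes was not tested. Reads limit miR-30b-3p most.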

Other observations

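The 3p arms of miR-30c, which are no members, are named by gene and so separate the 2 hairpins that give the same miR-30c-5p. miR-30c-1-3p, from the Nfyc intron, had 19 to 46 reads, and miR-30c-2-3p, from chromosome 1, was 2.91 to 4.20 times as abundant in each sample. Their levels were 3.86 and 4.23 RPM in NC and 7.19 and 8.13 RPM in GAA for miR-30c-1-3p, and 12.8 and 17.8 RPM in NC and 26.4 and 23.7 RPM in GAA for miR-30c-2-3p. The limma log2 fold changes in RPM were 0.78 (adjusted p = 0.219) and 0.69 (adjusted p = 0.275). As shares of miRNA RPM both stayed higher in both GAA samples, as did 23.8% of the 366 miRNAs but none of the 9 members. In RPM 65.3% of the 366 lay above in both GAA samples. The log2 differences of the shares were 0.41 and 0.25, with a limma adjusted p of 0.781 for each. The ratio of miR-30c-2-3p to miR-30c-1-3p was 3.32 and 4.20 in NC and 3.68 and 2.91 in GAA, and overlapped between the groups (exact permutation p = 0.667). It compares the 2 rare 3p strands only, and how much miR-30c-5p each hairpin gave was not measured.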
